A study of Mus musculus with 27 samples.

Results

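Guca2a encodes guanylin, Guca2b encodes uroguanylin and Gucy2c encodes guanylate cyclase C, the receptor that both peptides share. These 3 genes were taken by symbol from a table of 23420 genes, and all 3 were in it. RNA tags from the 3′ ends of transcripts had been counted in 27 libraries from inbred C57BL/6 mice given water (control) or 15% EtOH (ethanol) over 8 weeks. Colon and jejunum, the stretch of small intestine after the duodenum, were each represented by tissue and by organoids, cultures grown from the stem cells of intestinal crypts. The groups were control and ethanol colon organoids (n = 2 and 2), jejunum organoids (n = 4 and 4), colon tissue (n = 4 and 4) and jejunum tissue (n = 3 and 4). The title of the series places them in a study of colonic permeability and organoid stem cell fate after alcohol feeding. No transgene, engineered allele, age or sex is given in the labels, and nothing in them says that the organoids themselves were exposed to ethanol in culture.

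Guanylin and uroguanylin are small peptides that epithelial cells release into the gut lumen as longer precursors. Both bind guanylate cyclase C on the apical side of enterocytes, and the receptor then makes cyclic GMP from GTP. Cyclic GMP acts through the kinase encoded by Prkg2 to open the chloride channel Cftr and to hold back the sodium/hydrogen exchanger Slc9a3, so that salt and water move into the lumen. Guanylin is known as the main ligand of the colon and uroguanylin as the main ligand of the upper small intestine, and heat-stable enterotoxins of gut bacteria act on the same receptor.

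The peptides themselves lie at the very end of both coding sequences, and this end is shown because it carries the feature by which both bind a single receptor. The last 45 coding bases before the stop codon (build GRCm38, or mm10; GENCODE vM21) are printed 5′ to 3′ with the 4 cysteine codons in capitals.
Guca2a, chromosome 4, 119639228 to 119639272, plus strand: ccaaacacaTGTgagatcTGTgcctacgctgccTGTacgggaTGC
Guca2b, chromosome 4, 119656795 to 119656839, minus strand: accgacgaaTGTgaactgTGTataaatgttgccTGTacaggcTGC
Of the 45 bases, 29 were identical, and 8 of the 15 codons encoded the same amino acid, the 4 cysteines among them. These cysteines form the disulfide bonds of the mature peptides. The last 300 bases of the 2 transcripts, where 3′ tags fall, shared no run longer than 9 bases, so a tag of one gene is not a near copy of the other.

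Guca2a (chromosome 4, 119637704 to 119639471, plus strand) and Guca2b (chromosome 4, 119656607 to 119658954, minus strand) are neighbours that point towards each other, with 17135 bases and no annotated gene between them. Both have 3 exons, and the printed stretch lies in 1 exon of each. Gucy2c lies on another chromosome (chromosome 6, 136697284 to 136781765, minus strand).

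Levels are given in CPM, tag counts scaled to the same total in each library. That total leaves out Rn45s, the precursor of ribosomal RNA, because its share of a library ran from 18.3 to 84.3%. Counts outside Rn45s ran from 684906 to 7606668 per library. They were lowest in control jejunum tissue (684906 to 1510057) and control colon organoids (818240 to 2036195). One tag is read per transcript, so levels of different genes can be set side by side without a length correction. The 6 epithelial markers (Epcam, Cdh1, Krt8, Krt18, Krt19, Vil1) all had counts in all 8 groups. Small intestinal enterocyte markers summed to 45.2 to 247 CPM in colon organoids and 2510 to 7849 CPM in jejunum organoids. Of the 8 colon tissue libraries, 3 (control 1, ethanol 1 and ethanol 2) stood apart by Hoxb13, a marker of the distal colon, at 182 to 801 CPM against 0 to 0.274 CPM in the other 5.

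Guanylin was most abundant in the colon of the animal and in the ethanol colon organoids. Guca2a stood at 1069, 1536, 1411 and 1631 CPM in control colon tissue and at 1930, 1001, 1617 and 2552 CPM in ethanol colon tissue, where it was among the 86 most abundant genes of each library. In jejunum tissue it stood at 510, 321 and 321 CPM in controls and at 256, 310, 443 and 692 CPM with ethanol. All jejunum tissue libraries were below all colon tissue libraries, and the treatments overlapped in both segments. In jejunum organoids it stood at 175, 635, 357 and 380 CPM in controls and at 255, 138, 209 and 196 CPM with ethanol. The widest gap was in colon organoids, with 58.4 and 105 CPM in the 2 control libraries and 1433 and 1170 CPM in the 2 ethanol libraries.

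Ordered by group mean, Guca2a was highest in ethanol colon tissue (1775 ± 646 CPM, SD, n = 4), followed by control colon tissue (1411 ± 246, n = 4) and ethanol colon organoids (1302 ± 186, n = 2), and these neighbours overlapped. A gap followed, down to ethanol jejunum tissue (425 ± 194, n = 4), control jejunum organoids (387 ± 189, n = 4) and control jejunum tissue (384 ± 109, n = 3), which overlapped each other. Ethanol jejunum organoids (199 ± 48.1, n = 4) and control colon organoids (81.8 ± 33.0, n = 2) came last, each apart from its neighbour in the order.

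Uroguanylin had the reverse pattern, high in the jejunum and scarce in the colon. Guca2b stood at 1784, 1825 and 1519 CPM in control jejunum tissue and at 960, 1859, 1381 and 1045 CPM in ethanol jejunum tissue. Jejunum organoids held less, at 266, 385, 330 and 596 CPM in controls and 437, 340, 402 and 196 CPM with ethanol. Colon tissue held 47.6, 64.7, 83.4 and 54.8 CPM in controls and 28.0, 46.6, 72.1 and 50.8 CPM with ethanol. In control colon organoids only 2 tags were counted in 1 library (0.982 CPM) and none in the other, where a 95% Poisson interval reaches up to 4.51 CPM. Ethanol colon organoids held 36 and 5 tags (12.7 and 3.72 CPM). The order of the group means was control and ethanol jejunum tissue (1709 ± 166 and 1311 ± 408), control and ethanol jejunum organoids (394 ± 143 and 344 ± 106), control and ethanol colon tissue (62.6 ± 15.5 and 49.4 ± 18.1), then ethanol colon organoids (8.19 ± 6.32) and control colon organoids (0.491 ± 0.695). Control and ethanol overlapped within each of the first 3 pairs, and every other step down was without overlap.

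The receptor was the most even of the 3 genes. Gucy2c stood at 282, 481, 573 and 507 CPM in control colon tissue and at 248, 326, 528 and 392 CPM in ethanol colon tissue. In jejunum tissue it stood at 454, 394 and 464 CPM in controls and at 529.6, 460.3, 414 and 408 CPM with ethanol, so the 4 tissue groups overlapped. Jejunum organoids were narrowly spread, from 224 to 269.5 CPM in controls and from 233 to 274 CPM with ethanol. Colon organoids stood lower, at 41.7 and 19.6 CPM in controls and at 154 and 201 CPM with ethanol. Group means ran from 461 ± 126 CPM in control colon tissue through 453 ± 56.3, 437 ± 37.5 and 373 ± 119 in the other tissue groups to 256 ± 18.5 and 249 ± 20.9 in ethanol and control jejunum organoids, and these 6 overlapped their neighbours in order. Ethanol colon organoids (177 ± 33.3) and control colon organoids (30.6 ± 15.7) lay below without overlap.

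**Figure D1:**
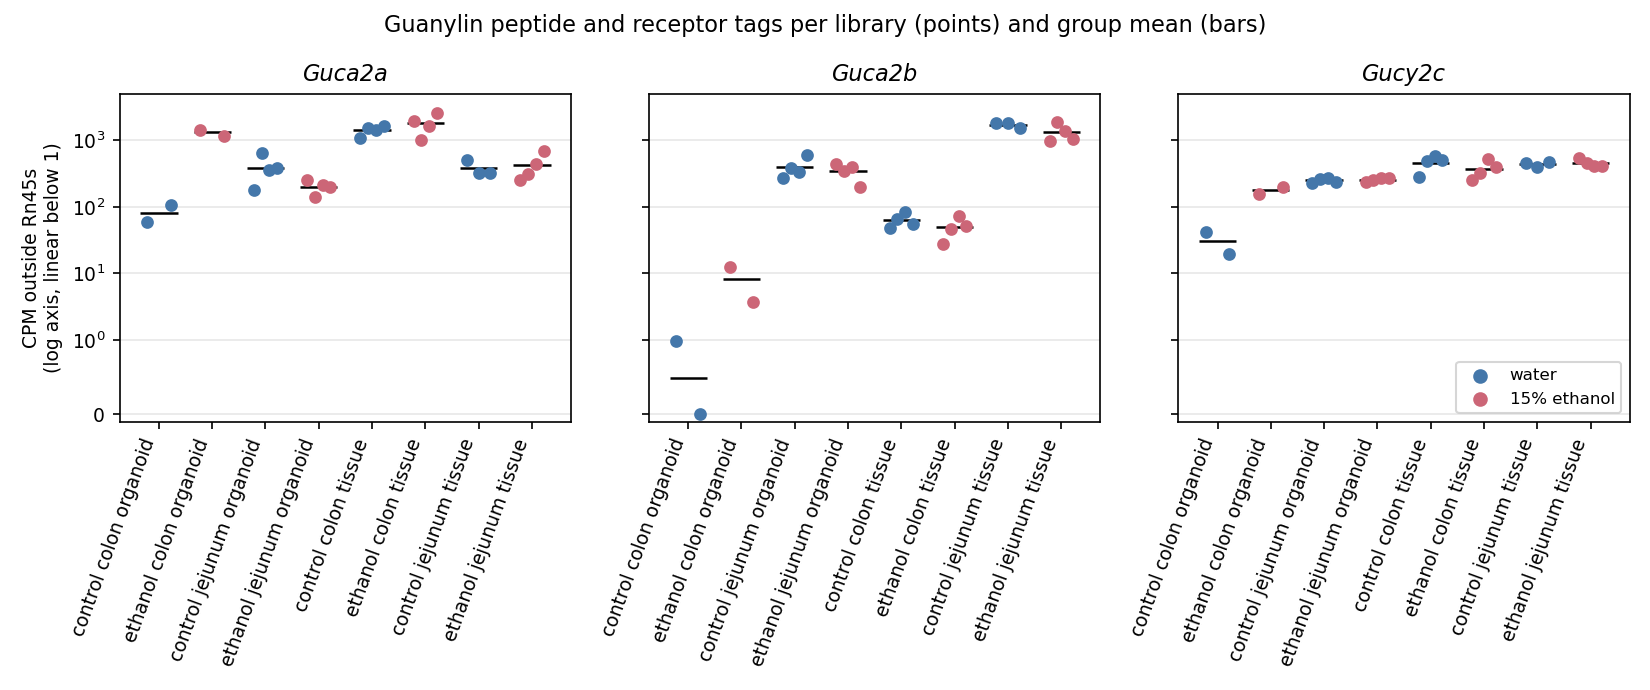
CPM outside Rn45s (log axis, linear below 1) of Guca2a, Guca2b and Gucy2c in 27 libraries (points) of the 8 groups, with bars at the group means. Control colon organoids are the lowest group for all 3 genes, and Guca2b lies at 0 to 83.4 CPM in every colon library against 196 CPM or more in every jejunum library.

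Comparisons between groups were tested with edgeR's quasi-likelihood test, with Benjamini-Hochberg adjustment over all genes tested, and a call means an adjusted p under 0.05. Fold changes are log2 ± standard error. Replicates are libraries with separate donor numbers, and whether each number is a separate mouse is not stated, so p-values measure the spread between these libraries. In these bulk samples, fewer cells of a type and less RNA per cell cannot be told apart.

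Between the segments of control tissue, the ligands changed places while the receptor did not pass the test. Guca2a was higher in the colon than in the jejunum by 1.47 ± 0.40 (adjusted p = 0.00745) and Guca2b was lower by a log2 value of -5.17 ± 0.37 (adjusted p = 6.21e-09). Gucy2c differed by -0.33 ± 0.30 (adjusted p = 0.395). Of the 13275 genes tested, 42.6% were called in this comparison, 24.9% higher and 17.8% lower, so a call by itself was common here.

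Ethanol tissue gave the same directions for both ligands. Guca2a was higher in the colon by 1.51 ± 0.37 (adjusted p = 0.00245) and Guca2b lower at -5.26 ± 0.37 (adjusted p = 3.08e-09), where 48.7% of genes were called, 25.5% higher and 23.1% lower. Gucy2c was lower in the colon at -0.80 ± 0.28 (adjusted p = 0.0246). That call was lost without ethanol colon tissue 1 (-0.69, adjusted p = 0.0551) and without ethanol colon tissue 2 (-0.71, adjusted p = 0.0680), 2 of the libraries high in Hoxb13. Without all 3 such libraries, a choice made after seeing the data, Gucy2c differed by -0.51 (adjusted p = 0.104). Per epithelial marker tag, the log2 difference of Gucy2c was -0.16 with overlapping ranges (exact permutation p = 0.571), and 0.57 per Epcam tag.

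In control organoids all 3 genes were lower in the colon than in the jejunum. Guca2a was lower at -2.55 ± 0.46 (adjusted p = 0.000839), opposite to its direction in tissue. Gucy2c was lower at -3.19 ± 0.30 (adjusted p = 8.93e-06). Guca2b was called as well (adjusted p = 8.36e-06), and its pooled level was 556-fold higher in the jejunum, with a 95% counting interval of 154 to 4593, since control colon organoids held 2 tags in all. Of the 13195 genes tested, 49.5% were called, 24.1% higher and 25.5% lower. A spread estimated for each group (limma-voom) ended the calls of Guca2a (-2.52, adjusted p = 0.450) and Guca2b (-9.01, adjusted p = 0.296). That fit called 1021 genes here, against 6536 in the main fit.

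In ethanol organoids Guca2a was again the higher one in the colon, by 2.66 ± 0.38 (adjusted p = 0.000204), and Guca2b the lower one at -5.29 ± 0.59 (adjusted p = 3.67e-05), where 45.8% of genes were called, 25.9% higher and 19.9% lower. Gucy2c stood at -0.58 ± 0.25 (adjusted p = 0.0704). It was called lower in the colon with DESeq2 (-0.54, adjusted p = 0.00777), with a spread per group in limma-voom (-0.60, adjusted p = 0.0455) and with the 2 groups fitted alone (-0.58, edgeR adjusted p = 0.0101). The Guca2b value was -5.37 with a spread per group (adjusted p = 0.0530).

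The difference between segments was itself compared between organoids and tissue, in 1 fit of all 27 libraries added after the levels were seen. In controls the log2 value of colon against jejunum was more negative in organoids for all 3 genes. It differed by -4.12 ± 0.64 for Guca2a (adjusted p = 1.38e-05), -4.25 ± 0.95 for Guca2b (adjusted p = 0.000844) and -2.97 ± 0.46 for Gucy2c (adjusted p = 1.09e-05). Guca2a changed sign between tissue and organoids, while the gap of Guca2b and Gucy2c was wider in organoids. The Guca2b value rests on 2 tags in control colon organoids. In this comparison of controls 40.3% of 14921 genes were called. All 3 calls were lost with a spread per group in limma-voom (adjusted p = 0.0946, 0.434 and 0.108). That fit called 2217 genes, against 6006 in the main fit. In ethanol libraries none of the 3 was called: the difference was 1.2 ± 0.55 for Guca2a (adjusted p = 0.0840), 0.26 ± 0.40 for Gucy2c (adjusted p = 0.658) and near 0 for Guca2b (adjusted p = 1), where 40.7% of genes were called. The Guca2a value passed the threshold without ethanol colon tissue 4 (1.37, adjusted p = 0.0476) or ethanol jejunum tissue 1 (1.40, adjusted p = 0.0424).

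Because both ligands were counted in the same library, their ratio needs no scaling between libraries. Where Guca2b had few or no tags, as in colon organoids, the ratio was still affected by depth. Guanylin tags made up 94.4 to 96.7% of the 2 ligands in the 4 control colon tissue libraries and 95.6 to 98.6% in the 4 ethanol ones. In jejunum tissue they made up 22.2, 15.0 and 17.5% in controls and 21.0, 14.3, 24.3 and 39.8% with ethanol. Guanylin also made up nearly all ligand tags in colon organoids, at 98.3 and 100% in controls and 99.1 and 99.7% with ethanol. This included the control libraries in which both ligands were scarce. Guca2a tags per Guca2b tag were 113 and 315 in ethanol colon organoids, above the 21.5 to 69.0 of ethanol colon tissue. Control colon organoid 1 had 59.5, against 16.9 to 29.8 in control colon tissue, and control 2 had no Guca2b tags. The 98.3% of control 1 rests on 119 Guca2a and 2 Guca2b tags. Its 95% Wilson interval, 94.2 to 99.5%, spans the 94.4 to 96.7% of control colon tissue. The 100% of control 2 rests on 86 tags, with a 95% Wilson interval from 95.7%. Jejunum organoids held 39.7, 62.3, 52.0 and 38.9% in controls and at 36.8, 28.8, 34.2 and 50% with ethanol. All were above the control jejunum tissue libraries, while ethanol jejunum tissue 4, at 39.8%, lay within their range.

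On the log2 scale, with 0.5 added to each count, the ratio of Guca2a to Guca2b was higher in the colon by 6.69 in control tissue, 6.85 in ethanol tissue, 6.61 in control organoids and 8.24 in ethanol organoids. With 1 count added in place of 0.5, the difference in control organoids was 5.99. With 0.5 added, the libraries of the 2 segments did not overlap in any of the 4 comparisons. Two-sided exact permutation p-values were 0.0571, 0.0286, 0.133 and 0.133, the smallest each design allows, and adjusted over the 4 comparisons they ran from 0.114 to 0.133, so this family could not pass 0.05. With 0.5 added, ethanol and control overlapped in the ratio in all 4 settings. The differences were 0.98, -0.65, 0.66 and 0.50 in colon organoids, jejunum organoids, colon tissue and jejunum tissue. Exact permutation p-values were 0.667, 0.143, 0.314 and 0.457 (adjusted, 0.571 to 0.667). The smallest these designs allow are 0.333, 0.0286, 0.0286 and 0.0571, so after adjustment this family could not pass 0.05 either. The overlap in colon organoids depended on the added count, as control 2 held no Guca2b tags. With 1 count added there, the difference was 1.53 (exact permutation, adjusted p = 0.444).

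**Figure D2:**
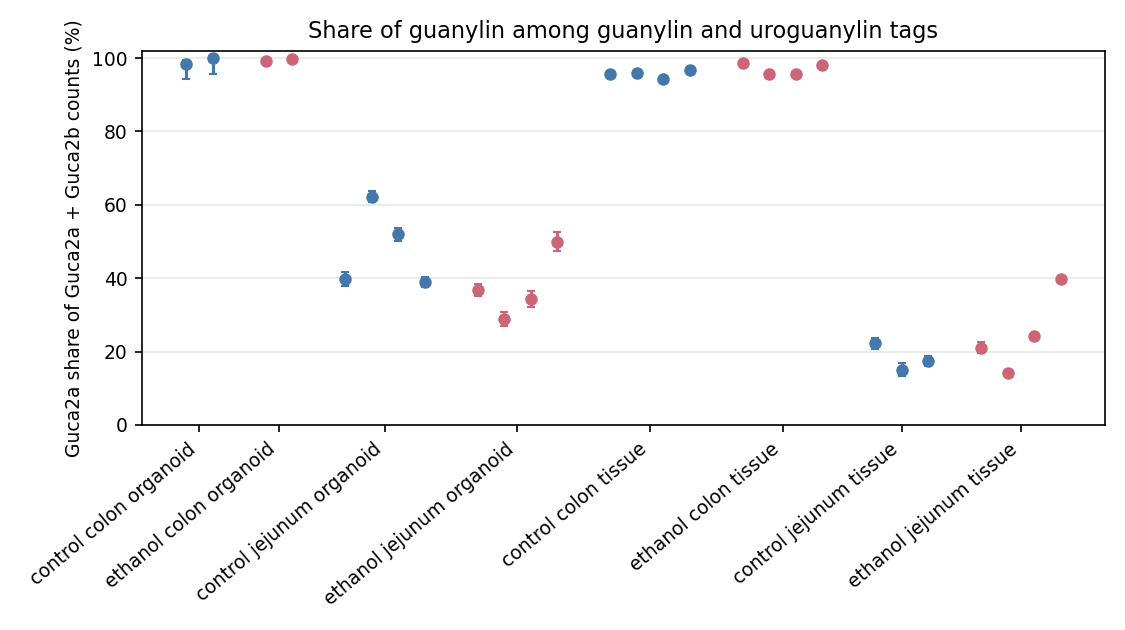
Share of Guca2a among the counts of Guca2a and Guca2b (%), 1 point per library with its 95% Wilson interval, which covers counting error only; blue is water and red is 15% ethanol. Colon libraries lie at 94.4% or above in tissue and in organoids, and jejunum libraries at 62.3% or below.

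The 2 ligands together exceeded the receptor in all groups. Their summed tags per Gucy2c tag were 3.30 ± 0.554 in control colon tissue (SD, n = 4), 5.24 ± 2.40 in ethanol colon tissue (n = 4), 4.82 ± 0.764 in control jejunum tissue (n = 3) and 3.92 ± 1.10 in ethanol jejunum tissue (n = 4). Jejunum organoids had 3.13 ± 1.03 in controls and 2.15 ± 0.634 with ethanol (n = 4 each). Colon organoids had 1.42 and 5.38 in the control libraries and 9.41 and 5.85 in the ethanol libraries. Summed ligand levels in tissue were 1474 ± 251 CPM in control colon (n = 4) and 2094 ± 231 CPM in control jejunum (n = 3), closer to each other than either ligand alone.

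In colon organoids all 3 genes were higher with ethanol. Guca2a rose by 4.26 ± 0.53 (adjusted p = 0.000535) and Gucy2c by 2.64 ± 0.31 (adjusted p = 0.000476). Guca2b rose too (adjusted p = 0.0341), from 2 tags to 41 over 2 libraries each, a pooled ratio of 14.0 with a 95% counting interval of 3.63 to 119. All 3 were thus called higher, where 11.9% of the 13195 genes tested were called higher and 16.9% in either direction. The ranges of the groups did not overlap for any of the 3, which held for 40.6% of genes.

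Those calls rest on 2 libraries per group and on a spread shared with the jejunum organoids. With a spread per group they were lost (adjusted p = 0.650, 0.920 and 0.565 for Guca2a, Guca2b and Gucy2c), as they were for Guca2a and Gucy2c with the 2 groups fitted alone (adjusted p = 0.325 and 0.599), and both fits called 0 genes in all, with 1033 and 889 genes at an unadjusted p under 0.05. Guca2a (3.96 to 4.61) and Gucy2c (2.20 to 3.49) stayed called when each library in turn was left out, while Guca2b was lost without control 1 (8.03, adjusted p = 0.0970), control 2 (3.33, adjusted p = 0.0971) or ethanol 1 (2.52, adjusted p = 0.282).

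Other epithelial genes differed between the same libraries. The epithelial markers summed to 6259 and 8768 CPM in control and to 7394 and 8144 CPM in ethanol colon organoids, so the groups overlapped. Taken per epithelial marker tag, the log2 differences were 3.97 for Guca2a, 3.0 for Guca2b and 2.53 for Gucy2c, with no overlap. Exact permutation p was 0.333 each, the smallest that 2 against 2 allows (adjusted, 0.514). Epcam alone did not overlap, at 529 and 735 CPM in control and 1471 and 1801 CPM in ethanol colon organoids. Per Epcam tag the log2 differences were smaller, at 2.66 for Guca2a, 1.68 for Guca2b and 1.21 for Gucy2c. Surface colonocyte markers (8 of 8 in the table) summed to 1154 to 3158 CPM in controls and 9195 to 13770 CPM with ethanol, with Slc37a2 at 0 in controls. Goblet cell markers (7 of 7) summed to 298 to 1564 and 2992 to 3573 CPM, stem cell markers (5 of 5) to 75.1 to 172 and 32.0 to 47.1 CPM. Leukocyte markers (6 of 6) summed to 28.5 to 77.0 and 101 to 212 CPM, with Cd3e and Cd79a at 0 in both groups. Small intestinal enterocyte markers summed to 45.2 and 69.7 CPM in controls and 233 and 247 CPM with ethanol. Hoxb13 had 31 tags (37.9 CPM) in control 2 and none in the other 3 colon organoid libraries. The part of these cell types and of Hoxb13 in the rise of the 3 genes was not tested.

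In jejunum organoids ethanol changed none of the 3 genes by the test. Guca2a stood lower with ethanol at -0.95 ± 0.32 (edgeR adjusted p = 1, unadjusted 0.0125), with the lowest control library (175 CPM) inside the range of the ethanol libraries. Guca2b differed by -0.21 ± 0.34 and Gucy2c by 0.03 ± 0.19 (adjusted p = 1 each). The share of genes called was 0% in edgeR, with 147 genes at an unadjusted p under 0.05 and 1 gene called by DESeq2. The ethanol effect itself differed between the segments: it was higher in colon than in jejunum organoids by 5.21 ± 0.61 for Guca2a (adjusted p = 0.000943), 4.03 ± 1.16 for Guca2b (adjusted p = 0.0498) and 2.61 ± 0.36 for Gucy2c (adjusted p = 0.00167). In that comparison 7.03% of genes were called higher and 9.21% in either direction. All 3 calls were lost with a spread per group (limma adjusted p = 0.652, 0.914 and 0.604), a fit that called 0 genes here against 1215 in the main fit. The call of Guca2b was also lost without a filter on low counts (4.03, edgeR adjusted p = 0.0646). The Guca2b value was lost without control 1 (8.23, adjusted p = 0.0988), control 2 (3.53, adjusted p = 0.103) or ethanol 1 (2.72, adjusted p = 0.300) of the colon organoids, and without any 1 of the 8 jejunum organoid libraries (3.72 to 4.19, adjusted p = 0.0563 to 0.0818).

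In tissue, ethanol changed none of the 3 genes by the test. In the colon, Guca2a differed by 0.29 ± 0.36, Guca2b by -0.38 ± 0.31 and Gucy2c by -0.35 ± 0.28 (adjusted p = 1 each), where 0.00753% of the 13275 genes (1 gene, lower) was called. In the jejunum, they differed by 0.25 ± 0.39, -0.29 ± 0.33 and 0.12 ± 0.30 (adjusted p = 0.861, 0.797 and 0.918), where 0% was called, with 1521 genes at an unadjusted p under 0.05 and 30 genes called by DESeq2. The sign of the small Guca2a and Gucy2c values in jejunum tissue depended on the setting: Guca2a was -0.11 without ethanol 4, and Gucy2c was -0.02 with DESeq2 size factors. The difference of the ethanol effect between colon and jejunum tissue was 0.04 ± 0.53, -0.09 ± 0.45 and -0.47 ± 0.41, none of them called, and 0% of genes were called (877 at an unadjusted p under 0.05 and 0 by DESeq2).

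**Figure D3:**
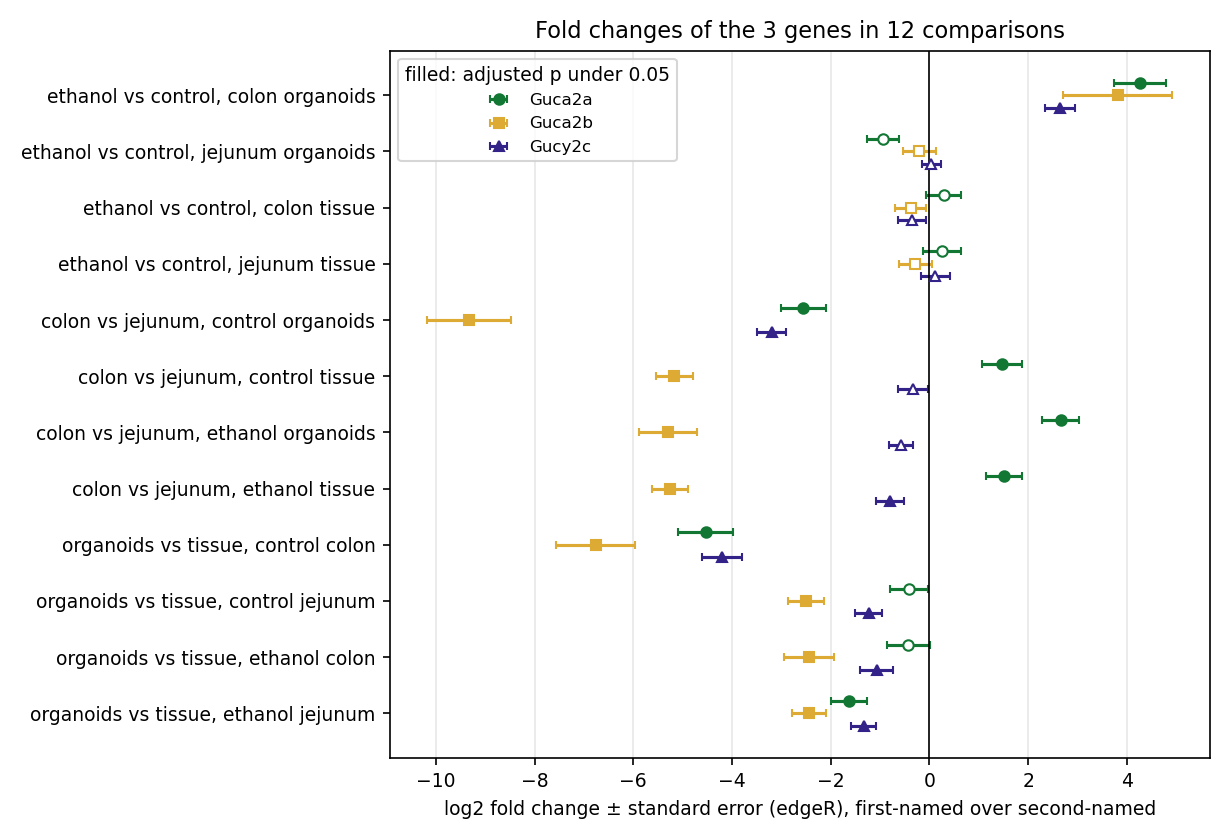
Log2 fold changes ± standard error (edgeR) of Guca2a, Guca2b and Gucy2c in 12 comparisons, first-named group over second-named, filled where the adjusted p is under 0.05. Among the 4 ethanol comparisons the filled points are those of colon organoids (4.26, 3.82 and 2.64); the Guca2b values that involve control colon organoids rest on 2 tags.

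Within colon tissue, the 3 libraries high in Hoxb13 were also low in the receptor. Gucy2c stood at 282, 248 and 326 CPM in control 1, ethanol 1 and ethanol 2, and at 392 to 573 CPM in the other 5, with no overlap. Guca2b stood at 28.0 to 47.6 CPM in the 3 and at 50.8 to 83.4 CPM in the 5, while Guca2a overlapped (1001 to 1930 and 1411 to 2552 CPM). These libraries were set apart by a measured gene and not by a label, so no test is given. The share of all genes whose ranges part in the same split was not counted, so the lack of overlap may be common. Surface colonocyte markers summed to 4320 to 5626 CPM in the 3 and 21792 to 36314 CPM in the 5, and the epithelial markers to 3886 to 6128 and 4961 to 6014 CPM. Stem cell markers summed to 167 to 259 CPM in the 3 and 70.4 to 141 CPM in the 5. Smooth muscle markers stood at 14032 and 19035 CPM in control 1 and ethanol 1 and at 3346 to 4176 CPM in the other 6 libraries, ethanol 2 among them, and fibroblast markers at 2706 and 1858 CPM against 463 to 904 CPM. The part of these cell types in the receptor's level was not tested. Without the 3 libraries the ethanol differences in colon tissue were 0.46 for Guca2a, -0.14 for Guca2b and -0.18 for Gucy2c (adjusted p = 1 each, edgeR).

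**Figure D4:**
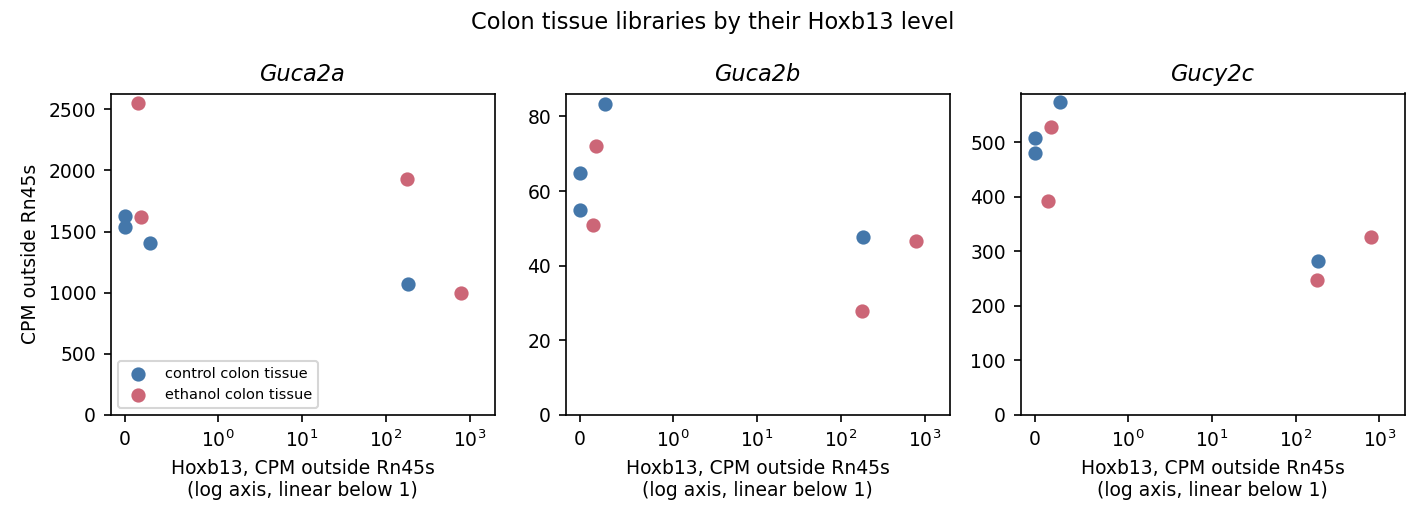
CPM outside Rn45s of Guca2a, Guca2b and Gucy2c (vertical axes) against those of Hoxb13 (horizontal axes, logarithmic and linear below 1) in the 8 colon tissue libraries. The 3 libraries with Hoxb13 at 182 CPM or above hold 248 to 326 CPM of Gucy2c, and the other 5 hold 392 to 573 CPM.

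In organoids against the tissue they represent, Guca2b and Gucy2c were called lower in all 4 comparisons and Guca2a in 2 of them. In control colon, Guca2a was lower in organoids at -4.53 ± 0.56 (adjusted p = 6.67e-07) and Gucy2c at -4.20 ± 0.40 (adjusted p = 1.45e-08). Guca2b was called lower as well (adjusted p = 3.30e-07), and its pooled level was 85.4-fold higher in tissue (95% counting interval 23.6 to 706). Of 14921 genes tested, 31.2% were called lower and 45.8% in either direction. With a spread per group none of the 3 was called (limma adjusted p = 0.111, 0.250 and 0.0571 for Guca2a, Guca2b and Gucy2c). That fit called 438 genes here, against 6833 in the main fit.

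In ethanol colon, Guca2a differed between organoids and tissue by -0.43 ± 0.44 (adjusted p = 0.476). Guca2b was lower in organoids at -2.44 ± 0.51 (adjusted p = 0.000678) and Gucy2c at -1.07 ± 0.33 (adjusted p = 0.0136), where 33% of genes were called, 18.3% of all genes lower. The Gucy2c call was lost without ethanol colon organoid 1 (-0.94, adjusted p = 0.116) or 2 (-1.21, adjusted p = 0.0553), and with the 2 groups fitted alone (-1.07, adjusted p = 0.0598). Both were lost with a spread per group (limma adjusted p = 0.236 for Guca2b and 0.0853 for Gucy2c). That fit called 3188 genes here, against 4927 in the main fit.

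In control jejunum, Guca2a differed by -0.41 ± 0.38 (adjusted p = 0.388), while Guca2b was lower in organoids at -2.51 ± 0.36 (adjusted p = 2.36e-06) and Gucy2c at -1.23 ± 0.27 (adjusted p = 0.000496), where 51.8% of genes were called, 30.4% of all genes lower. In ethanol jejunum all 3 were lower in organoids: Guca2a at -1.63 ± 0.36 (adjusted p = 0.000452), Guca2b at -2.44 ± 0.35 (adjusted p = 1.62e-06) and Gucy2c at -1.33 ± 0.26 (adjusted p = 9.38e-05), where 54.3% of genes were called, 35.8% of all genes lower. The epithelial markers summed to 4097 to 5169 CPM in jejunum organoids and 4651 to 6381 CPM in jejunum tissue. Small intestinal enterocyte markers summed to 2510 to 7849 CPM in those organoids and 17879 to 35961 CPM in that tissue, and their part in the difference was not tested.

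The pathway around the receptor was described with a list of 48 genes in the table, of which 36 were tested in organoids and 41 in tissue: effectors, scaffolds, cyclic GMP breakdown and export, other guanylate cyclases, and 6 transcription factors reported to act on these promoters. In ethanol colon organoids, 9 of 36 were called higher (11.9% of all genes) and 2 lower (5.06% of all genes). The median log2 difference was 0.59, against 0.109 over all genes. Transcription factors of the list were among those called higher. Cdx1, a homeobox factor of the intestine, rose by 2.90 ± 0.43 (adjusted p = 0.00136), from 10.4 to 58.9 CPM. Hnf4a (1.2 ± 0.26, adjusted p = 0.00906) and Cdx2 (0.79 ± 0.20, adjusted p = 0.0199), named after their values were seen, rose as well. All these edgeR calls carry the same limit as those of the members, since a spread per group left 0 genes called.

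Among the effectors in ethanol colon organoids, both apical sodium/hydrogen exchangers of the list were called higher. Slc9a3, the exchanger that cyclic GMP holds back, had no tags in control libraries and 20 and 37.2 CPM with ethanol, at least 27.2-fold higher against a floor of 3 counts over the controls (edgeR adjusted p = 0.00711). Slc9a2, a second exchanger, rose from 0.737 to 46.4 CPM (5.65 ± 0.86, adjusted p = 0.00156). Abcc4, which exports cyclic nucleotides, fell from 211 to 79.4 CPM (-1.19 ± 0.35, adjusted p = 0.0348). Slc12a2, the basolateral chloride loader, fell from 355 to 185 CPM (-0.72 ± 0.23, adjusted p = 0.0479). Cftr (0.56 ± 0.80), Slc26a3, a chloride/bicarbonate exchanger (0.96 ± 0.85), and Prkg2 (-0.65 ± 0.61) did not pass the test (adjusted p = 0.687, 0.485 and 0.521). Cftr had 0 and 71.2 CPM in the 2 control libraries, so they differed more from each other than from the ethanol pair (36.9 and 69.9 CPM).

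In the other ethanol comparisons no gene of the list was called, in jejunum organoids (0 of 36), colon tissue (0 of 41) or jejunum tissue (0 of 41), against the shares of 0, 0.00753 and 0% of all genes given above. Cftr differed by -0.19 ± 0.52, 0.36 ± 0.25 and 0.39 ± 0.30 in these settings, and Prkg2 by -0.12 ± 0.42, -0.90 ± 0.83 and 0.26 ± 0.91. Slc26a3 differed by 0.53 ± 0.56, 0.04 ± 0.44 and 0.22 ± 0.48. Slc9a3 was scarce in all 3 settings, with group means of 0.830 to 3.21 CPM.

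Between the segments, control organoids and control tissue differed in which pathway genes were called. In control organoids 9 of 36 were higher in the colon (24.1% of all genes) and 13 lower (25.5%). Of the 6 transcription factors, 5 were lower and none higher, among them Cdx1 (10.4 against 290 CPM; -5.28 ± 0.42, adjusted p = 3.39e-06) and Hnf4a (-2.95 ± 0.25, adjusted p = 5.11e-06). Higher in the colon were the exporters Abcc4 (4.11 ± 0.30) and Abcc5 (3.06 ± 0.28) and the chloride channel Ano1 (3.24 ± 0.52), and Cftr was lower (-2.27 ± 0.75, adjusted p = 0.0247). Slc26a3 (-1.43 ± 0.77) and Prkg2 (-0.19 ± 0.52) did not pass.

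In control tissue 14 of 41 were higher in the colon (24.9% of all genes) and 9 lower (17.8%). Cdx1 was higher there (1.94 ± 0.27, adjusted p = 2.31e-05), opposite to organoids, as was Cftr (1.78 ± 0.31, adjusted p = 0.000192), at 114 ± 17.4 CPM in the colon and 26.2 ± 12.9 CPM in the jejunum. Slc12a2 (1.72 ± 0.24) and Pde2a, a cyclic nucleotide phosphodiesterase (2.42 ± 0.38), were higher too. Lower in the colon were the scaffold Pdzk1 (0.392 against 651 CPM; -11.06 ± 0.45), the transcription factor Hnf4g (-3.67 ± 0.35) and the cyclic GMP phosphodiesterase Pde9a (-1.82 ± 0.19). Prkg2 (-0.42 ± 0.90), Slc26a3 (0.38 ± 0.49) and Slc9a3 (0.90 ± 1.07) did not pass. Colon tissue held 3346 to 19035 CPM of smooth muscle markers against 232 to 1942 CPM in jejunum tissue, and their part in the list's differences was not tested.

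The genes on either side of the ligand pair were not called with ethanol in colon organoids. Foxj3, 8584 bases before Guca2a, differed by -0.14 ± 0.49 in ethanol colon organoids (adjusted p = 0.888). Hivep3, 74829 bases beyond Guca2b, differed by 1.47 ± 1.13 (adjusted p = 0.421), with 7.37 and 8.55 CPM in controls and 15.1 and 23.0 CPM with ethanol, so its groups did not overlap. Its ethanol effect was 4.59 ± 1.83 higher in colon than in jejunum organoids, which did not pass the test (adjusted p = 0.155). Group means ran from 11.4 to 32.2 CPM for Foxj3 and from 0 to 19.1 CPM for Hivep3.

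Across the 27 libraries, the members' levels were correlated with those of 14128 genes as a description (Pearson r of log2 of CPM + 1; the libraries share segments, cultures and depth by group, so no p is given). Guca2a was most like Mettl7b (0.90), Upk1a (0.89), Cacna2d1 (0.89), Slfn4 (0.87) and Hpgd (0.87). Hpgd, the prostaglandin-degrading dehydrogenase, ran at 251.8 to 273 CPM in ethanol colon organoids and 107 to 416 CPM in colon tissue, against 17.2 to 35.4 CPM in control colon organoids. Guca2b was most like 1700019G17Rik (0.98), Mical1 (0.97), Slc5a1 (0.97), Mgam (0.97) and Dnm1 (0.96). Slc5a1 is the sodium-glucose cotransporter and Mgam a brush border disaccharidase, and both had group means of 12.4 to 187 CPM in colon groups and 485 to 3067 CPM in jejunum groups. Gucy2c was most like Tmprss4 (0.96), Pkig (0.96), Rp2h (0.95), Entpd8 (0.95) and Btnl1 (0.95). Tmprss4, a membrane serine protease, had no tags in control colon organoids, 7.38 and 14.1 CPM in ethanol colon organoids and 23.5 CPM or more in all jejunum organoids and tissue libraries. Which 5 genes came first depended on the setting. By Spearman correlation, 2, 2 and 0 of the 5 stayed among the first 5 of Guca2a, Guca2b and Gucy2c. With the 8 group means 0, 2 and 2 stayed, and with 0.1 CPM added in place of 1, 4, 2 and 3 stayed. Among the members, Pearson r was -0.10 between the 2 ligands, 0.53 between Guca2a and Gucy2c and 0.70 between Guca2b and Gucy2c.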

How the data were processed

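The counts used are those the authors deposited: unnormalized whole numbers of 3′ tags (QuantSeq kit) for each gene symbol. Tools named, per the submitters' processing notes, are BWA, HTSeq, Trimmomatic 0.32, edgeR and limma, with build mm10. Settings and strand use are not given in the sources used here, so reads of overlapping antisense genes could be counted together. The deposited normalized table was not used.

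Counts were tested with edgeR 4.0.16 (R 4.3.3): TMM on all genes, filterByExpr, robust quasi-likelihood fit, Benjamini-Hochberg over all genes tested. The 12 organoid libraries were fitted together, the 15 tissue libraries together, and all 27 for organoids against tissue, so that groups share 1 estimate of the spread. Standard errors are the fold change over the root of F. CPM leave Rn45s out of the library total. Ratios within a library used two-sided exact permutation tests. Intervals and floors (3 counts) cover counting error only. Likeness used genes with a mean of at least 5 CPM in some group. The fitting code was tested on simulated data.

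Alternatives were DESeq2 1.42.0, its size factors, no filter, no Rn45s, limma-voom (limma 3.58.1) with a spread per group, only the groups compared, a replicate block and each library left out. The members, lists and rules were chosen with earlier results of these data known. Pathway genes named were Cftr, Slc9a3, Slc26a3 and Prkg2, plus up to 3 called genes in each direction by smallest p in the ethanol comparisons and the control segment comparisons. A gene that this rule also names is not reported here. The same donor numbers recur in every group. For ethanol against control in jejunum tissue, deviations of same-numbered libraries had r = 0.125, 0.126 and 0.154 over 9094 genes. In colon tissue the values were 0.607, -0.043, 0.544 and 0.196. Every pair passed 0.1 in no comparison other than ethanol against control in jejunum tissue. No label pairs control with ethanol libraries, so these values do not show that the numbers are pairs, and the main tests used no pairing. Whether same-numbered libraries of a treatment come from the same mouse, across segments or across organoids and tissue, is not stated. The replicate block used the number alone for ethanol comparisons. For segments, and for organoids against tissue, it used the number within each treatment.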

Additional observations from a re-analysis of the deposited data

Results flagged for a closer look

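These 6 results were picked out because an effect differed between 2 settings by a test of the difference itself. The ethanol effect was larger in colon than in jejunum organoids by a log2 difference of 5.21 for Guca2a, 4.03 for Guca2b and 2.61 for Gucy2c (edgeR adjusted p = 0.000943, 0.0498 and 0.00167). Ethanol libraries of colon organoids were higher than control libraries in 2 of 2 for each gene, while ethanol and control jejunum organoids overlapped for each. Under a spread per group the 3 differences were 5.21, 3.64 and 2.60 (limma adjusted p = 0.652, 0.914 and 0.604). That fit called 0 genes in this comparison, against 1215 in the main fit.

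The log2 value of colon against jejunum was more negative in control organoids than in control tissue. It differed by -4.12 for Guca2a, -4.25 for Guca2b and -2.97 for Gucy2c (edgeR adjusted p = 1.38e-05, 0.000844 and 1.09e-05). For Guca2a the segments changed order, with the colon above the jejunum in tissue and below it in organoids. Under a spread per group these values were -4.06, -3.89 and -2.90 (limma adjusted p = 0.0946, 0.434 and 0.108). That fit called 2217 genes in this comparison, against 6006 in the main fit. Both sets of differences include the 2 control colon organoid libraries, which held 818240 and 2036195 counts outside Rn45s. Dixon's criterion was applied to groups of 4 libraries only (20 sets of values), where chance picks about 1 in 20, and picked none. The colon organoid groups and control jejunum tissue were too small for it.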

How the results depend on the processing

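Calls that involve the 2 control colon organoid libraries depended most on the processing, and the cause was not tested. With a spread per group (limma-voom), the ethanol differences in colon organoids were 4.37, 3.45 and 2.64 for Guca2a, Guca2b and Gucy2c, none of them called. Colon against jejunum in control organoids was then -2.52 for Guca2a and -9.01 for Guca2b, and control colon organoids against tissue was -4.58, -6.47 and -4.12, none called. That fit called 1021 genes between segments of control organoids and 438 between control colon organoids and tissue, against 6536 and 6833 in the main fits. With the 2 groups fitted alone, Guca2a (4.31) and Gucy2c (2.75) in colon organoids were not called, and Guca2b did not pass the filter. Leaving out 1 library moved Guca2b there from 2.52 to 8.03, and leaves 1 library in an arm, which is then assumed to vary like the other groups.

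Values near 0 changed sign. In jejunum tissue Gucy2c was -0.018 with DESeq2 size factors, -0.019 with DESeq2, and -0.02 to 0.23 with 1 library left out. Guca2a there was -0.11 to 0.54 with 1 library left out, and Guca2b in jejunum organoids -0.37 to 0.094. The difference of the ethanol effect in tissue was 0.055 and 0.056 for Guca2b by the same 2 settings and 0.23 without the libraries high in Hoxb13, and ran from -0.25 to 0.41 (Guca2a) and from -0.35 to 0.23 (Guca2b) with 1 library left out. The segment difference of organoids against tissue in ethanol libraries was for Guca2b -0.067 with DESeq2 size factors, -0.084 with DESeq2, -0.00072 without a filter, -0.24 without Rn45s and -0.071 with a spread per group. It ran from -1.33 to 0.55 (Guca2b) and from -0.021 to 0.39 (Gucy2c) with 1 library left out. Per epithelial marker, Gucy2c between segments of ethanol tissue was 0.57 with Epcam alone and -0.33 to 0.016 with 1 library left out. Per marker and with 1 library left out, sign changes also occurred for Guca2b in jejunum organoids (-0.34 to 0.079) and, in jejunum tissue, Guca2a (-0.16 to 0.31) and Gucy2c (-0.11 to 0.14).

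With the replicate block, Guca2b in colon organoids was 3.82 (adjusted p = 0.0892) and its ethanol difference from jejunum organoids was 4.03 (adjusted p = 0.129). Gucy2c between ethanol colon organoids and tissue was -0.89 (adjusted p = 0.0785), and Guca2a in the segment difference of ethanol libraries passed at 1.5 (adjusted p = 0.0244). In the ethanol comparison of jejunum tissue, the block put Guca2a at -0.041 and changed no call. The block took the number of genes called in colon organoids from 2236 to 1156, from 1215 to 406 for the ethanol difference between organoids, from 6536 to 1094 between segments of control organoids and from 6040 to 914 between those of ethanol organoids. Genes called in colon organoids numbered 0 with a spread per group or the 2 groups alone, and 1461 to 5850 with 1 library left out.

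Of 335 values of the 3 genes under the other settings, 295 kept direction and call, as did 364 of 405 with 1 library left out. The ratios of the ligands, between segments or with ethanol, could not pass the threshold under any setting, so their unchanged call says nothing about stability. DESeq2 size factors moved the median of all genes by -0.15 in the ethanol comparison of jejunum tissue and by 0.18 between control colon organoids and tissue.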
